A study of Mus musculus with 4 samples.

Results

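Among the cells of mouse renal cortex profiled by Drop-seq, 133 of 1916 retained cells were S3-like, that is, they carried transcripts typical of the last segment of the proximal tubule. A cell was S3-like when the summed UMIs (unique molecular identifiers, each standing for 1 captured mRNA molecule) of Slc7a13, Slco1a1 and Lpl reached at least 2 and exceeded both the summed UMIs of the S1 genes (Slc5a12, Slc5a2 and Spp2) and those of the S2 genes (Slc22a6 and Slc22a8). In addition, at most 1 UMI was allowed over 7 genes of the loop of Henle, distal tubule and collecting duct (Umod, Slc12a1, Slc12a3, Trpm6, S100g, Atp6v1g3 and Atp6v0d2). The levels of these 15 genes therefore chose the cells, and are given below as a description only. S1-like and S2-like cells were taken by the same rule with the sums exchanged, and distal-marked cells had at least 3 UMIs of the 7 distal genes and more of them than of any proximal sum. The 4 libraries came from 2 Akita mice (C57BL/6-Ins2Akita/J, a strain with a mutant insulin gene that becomes diabetic), aged 116 and 119 days per the labels, and from 2 of their wild-type counterparts, aged 45 and 51 days. The growth protocol names 24 weeks of housing, a span longer than any labelled age, so that the labels conflict on how old the mice were. It also names 8 mice per group, and no treatment. If the labelled ages hold, age ran with genotype, and their effects cannot be told apart. Cells were released from the cortex of 1 kidney per mouse with a sieve and collagenase IV, without sorting.

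The proximal tubule reclaims most of the filtered solutes, and its S3 segment is the straight terminal stretch that runs from the inner cortex into the outer medulla. S3 cells are known for secreting organic anions and drugs, for taking up fatty acids and for dense peroxisomes, and in mice many of their genes respond to androgens. Slc7a13 encodes AGT1, an apical transporter of aspartate, glutamate and cystine. Slco1a1 encodes the organic anion transporter OATP1A1, and Lpl encodes lipoprotein lipase, which frees fatty acids from lipoproteins. Napsa, an aspartic protease of lysosomes, and Ugt2b38, an enzyme that attaches glucuronic acid to steroids and drugs, are S3 markers that the rule did not use.

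Akita replicate 2 and Wild-type replicate 1 had 884 deposited barcodes in common, whereas any other 2 files had 3 or 4. These counts precede the filter on genes and mitochondrial UMIs, after which 600 and 564 barcodes of these 2 files were retained. S3-like calls fell on 51 of these shared barcodes, 27 of them S3-like in both files, 13 in Akita replicate 2 only and 11 in Wild-type replicate 1 only, which made 78 of the 133 S3-like entries. Each shared barcode was put with 1 file by its log2 ratio of UMIs, Akita replicate 2 to Wild-type replicate 1. These ratios were split at the midpoint of 2 groups, -0.238, and those above it counted as relatively more UMIs in Akita replicate 2. This held for 47 of the 51 (92.2%), and for 363 of all 884 shared barcodes (41.1%), which include barcodes that failed the filter. Among shared barcodes called in either file, it held for 74 of 142 S2-like and 8 of 21 S1-like. Which of these 2 mice a cell with a shared barcode came from is therefore uncertain. For comparisons of cell classes, these 2 files were joined into 1 pooled set in which each shared barcode was counted once, leaving 93 S3-like cells: 6 from Akita replicate 1, 55 from the pooled set and 32 from Wild-type replicate 2. The same sets held 45 S1-like, 208 S2-like and 346 distal-marked cells. Each value below is listed in the order Akita replicate 1, pooled set, Wild-type replicate 2, unless libraries are named. The S3-like cells held 6218, 71086 and 34766 UMIs in these sets, so that 1 UMI equalled 161, 14.1 and 28.8 counts per 1000000 UMIs of the summed cells (CPM), and Akita replicate 1 gave the coarsest values.

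Some S3-like barcodes also resembled each other within a file. Of the 133, 12 formed 6 pairs that differed at 1 base, 3 of them at position 12, the last base of the barcode. Counting any retained barcode of the same file, S3-like or not, 33 of the 133 had a neighbour 1 base away. The 4 pairs of Akita replicate 2 and Wild-type replicate 2 with the most UMIs are shown because they bear on how many separate cells were counted, with the differing base in capitals.
Akita replicate 2, 4447 UMIs: Attctaatagca
Akita replicate 2, 1118 UMIs: Gttctaatagca
Akita replicate 2, 1273 UMIs: cgcgacctagtC
Akita replicate 2, 1300 UMIs: cgcgacctagtG
Wild-type replicate 2, 4003 UMIs: Attcagtcatgg
Wild-type replicate 2, 974 UMIs: Gttcagtcatgg
Wild-type replicate 2, 566 UMIs: Cgtcgaggcaca
Wild-type replicate 2, 3313 UMIs: Ggtcgaggcaca
In these pairs the UMIs were either near equal or several-fold apart. The pair ending in C or G was also found in Wild-type replicate 1, with 978 and 936 UMIs.

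Most S3-like cells were called from Lpl and Slc7a13. Of the 133, 115 had a UMI of Lpl, 96 of Slc7a13 and 53 of Slco1a1. Slc7a13 and Lpl together marked 56 cells, all 3 genes marked 27, and Lpl without the other two marked 16, so that this subset rested on the lipase alone. In Akita replicate 1, all 6 cells had Slc7a13, 1 had Slco1a1 and 2 had Lpl, while in Wild-type replicate 2, 19 of the 32 had Slc7a13, 10 had Slco1a1 and 29 had Lpl. Of the markers outside the rule, Napsa was seen in 87 cells and Ugt2b38 in 92, and Kap, the kidney androgen-regulated protein of proximal tubule, in all 133. An S1 gene was seen in few cells, since 129 had no S1 UMI, but 80 had a UMI of Slc22a6, the S2 transporter OAT1.

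The rule cut through a continuous range of counts. The S3 sum had a median of 3 and a maximum of 16 UMIs, 43 cells stood exactly at the minimum of 2, and 32 exceeded the next proximal sum by exactly 1. Outside the rule, 69 cells had an S3 sum of 1, 26 were tied with another proximal sum and 20 were left out for a distal sum of 2. Napsa stood at 871 CPM over the 43 cells with a sum of 2, whose median depth was 573 UMIs, at 614 CPM over the 69 with a sum of 1 (median 511 UMIs), and at 1955 CPM over the 47 with a sum of at least 5 (median 1514 UMIs). Kap ran in the same order, at 66741, 37992 and 91730.3 CPM. S3-like cells are therefore a range of S3 signal and of depth, and Napsa and Kap were found at lower levels in the cells with a sum of 1.

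S3-like cells made up between 1.93% and 9.33% of the retained cells of a library. They numbered 6 of 311 in Akita replicate 1 (1.93%, 95% exact binomial interval 0.711 to 4.15), 56 of 600 in Akita replicate 2 (9.33%, 7.13 to 11.9), 39 of 564 in Wild-type replicate 1 (6.91%, 4.96 to 9.33) and 32 of 441 in Wild-type replicate 2 (7.26%, 5.02 to 10.1). These intervals cover counting error only. The Akita libraries thus lay on either side of both wild-type libraries. The mean was 5.63% ± 5.24 (SD, n = 2) in Akita and 7.09% ± 0.241 (SD, n = 2) in wild-type, a difference of -1.45 points (exact permutation test, two-sided, p = 1, with 0.333 the smallest p that 2 against 2 libraries can give). As a share of the S1-, S2- and S3-like cells together, the values were 12.2% and 30.3% in Akita and 22.7% and 33.3% in wild-type (difference -6.75 points, exact permutation p = 0.667). After each cell was thinned to 500 UMIs, leaving out shallower cells, 12 of 223 (5.38%) and 35 of 429 (8.16%) Akita cells and 29 of 461 (6.29%) and 23 of 329 (6.99%) wild-type cells were S3-like, a difference of 0.129 points (exact permutation p = 1). Thinning also changed which cells met the rule, since S3-like cells of Akita replicate 1 rose from 6 to 12. These shares are therefore not those of the same cells at equal depth.

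The treatment of the shared barcodes moved these shares. Without them, 16 of 162 cells of Akita replicate 2 (9.88%, 5.75 to 15.5) and 1 of 110 cells of Wild-type replicate 1 (0.909%, 0.023 to 4.96) were S3-like. Each shared barcode was also kept only in the file where it held relatively more UMIs, by the cut at -0.238. The shares were then 53 of 432 (12.3%) and 2 of 308 (0.649%), and with the opposite assignment 19 of 330 (5.76%) and 38 of 366 (10.4%). The difference between the genotype means was then 1.82, 3.15 and -4.98 points, so that its sign depended on the assignment. Leaving out Akita replicate 1 also turned the sign, to 2.25 points, and leaving out Akita replicate 2 gave -5.16.

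**Figure D1:**
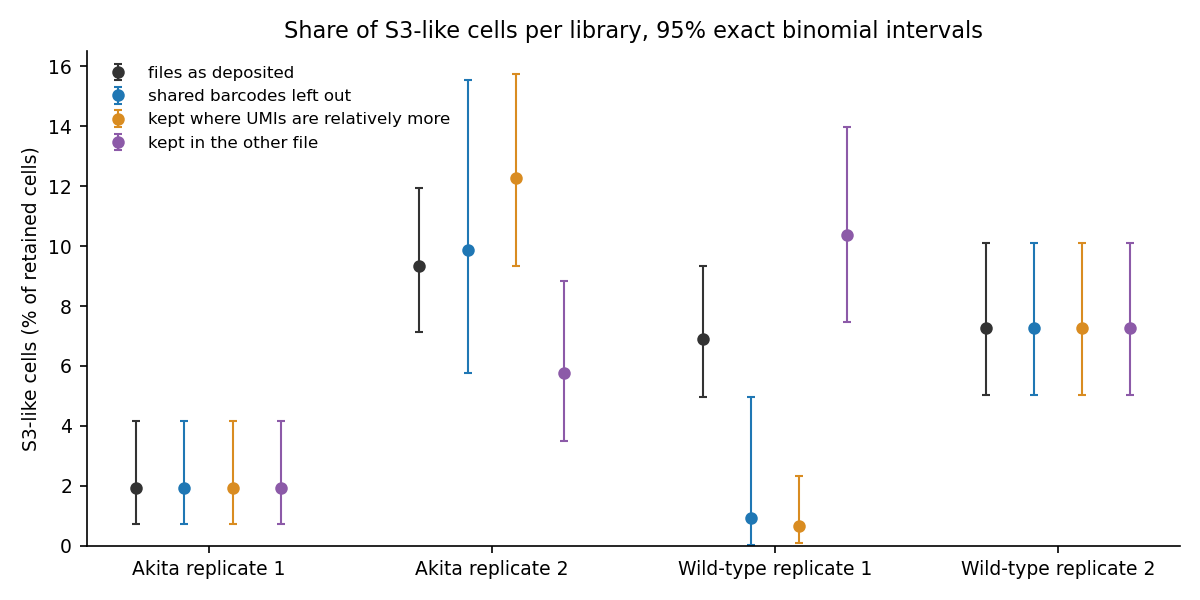
Share of S3-like cells in the retained cells of each library (y axis, percent), with 95% exact binomial intervals, for the files as deposited and for 3 ways of treating the barcodes shared by Akita replicate 2 and Wild-type replicate 1. Wild-type replicate 1 ranges from 0.649% to 10.4% with the treatment, while Akita replicate 1 and Wild-type replicate 2, which do not take part in the sharing, stay at 1.93% and 7.26%.

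The median depth of S3-like cells ran from 798.5 to 962.5 UMIs across libraries. Their median per cell was 874 and 962.5 UMIs in Akita and 873 and 798.5 UMIs in wild-type (means 918 and 836, exact permutation p = 0.333). The median number of detected genes was 471.5 and 468 in Akita and 454 and 397 in wild-type (exact permutation p = 0.333). Both Akita libraries thus lay above both wild-type libraries in UMIs and in genes, although 874 and 873 UMIs were nearly equal. A p of 0.333 is the smallest that these libraries can give. Mitochondrially encoded transcripts made up a median of 19.5% and 23.8% of the UMIs in Akita and 21.3% and 28.2% in wild-type, so the ranges overlapped. In Wild-type replicate 2, the 28.2% of S3-like cells stood beside 15.1% in S2-like and 23.6% in S1-like cells of the same library.

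Slc7a13, on chromosome 4 (GRCm38, chr4:19818725-19842218), is 1 of the 3 genes that chose the cells, and stood at 2573, 1055 and 1323 CPM in S3-like cells. Its level was 113, 215 and 191 CPM in S2-like cells and 95.1, 34.9 and 0 CPM in S1-like cells. All S3-like sets were above all others, a direction that the rule favours. Slco1a1 (chr6:141907282-141946962) stood at 161, 633 and 431 CPM in S3-like and at 67.6, 86.1 and 143 CPM in S2-like cells, and had no UMI in the 45 S1-like cells, so that the S3-like level was at least 9.43-fold the limit of 3 counts over the S1-like cells. Reads of Slco1a1 may be shared with its close relatives in the same gene cluster, and its values are uncertain to that extent. Lpl (chr8:68880491-68907448) stood at 482, 1857 and 2416 CPM in S3-like cells, at 180.2, 406 and 636 CPM in S2-like cells and at 0, 34.9 and 156 CPM in S1-like cells. Akita replicate 1 was the lowest set for Slco1a1 and Lpl and the highest for Slc7a13, and its Lpl fell within the range of the S2-like sets.

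Shares of cells with a UMI need a background, because free RNA reaches every droplet. In distal-marked cells, which should lack Slc7a13 and Slco1a1, 8.38% and 3.18% of the cells had a UMI of these genes, against 68.8% and 38.7% of the S3-like cells. Lpl was seen in 32.1% of distal-marked and 89.2% of S3-like cells. The median depth of distal-marked cells was 1095, 899 and 968.5 UMIs, and that of S3-like cells 874, 912 and 798.5 UMIs. The 33.2% of S2-like cells with a UMI of Lpl was close to the distal-marked share.

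Napsa and Ugt2b38, the markers that the rule left free, did not behave alike. Napsa (ENSMUSG00000002204, chr7:44572380-44586862) stood at 1608, 2223 and 892 CPM in S3-like cells, at 698, 793 and 699.8 CPM in S2-like cells and at 0, 209 and 0 CPM in S1-like cells. Each S3-like set was above each set of the other classes. In edgeR's quasi-likelihood test on the sums per set, with the set as a covariate and Benjamini-Hochberg adjustment over 594 genes, Napsa was higher by 3.84 ± 0.48 (log2 ± SE) than in S1-like cells (adjusted p = 1.21e-09) and by 1.13 ± 0.26 than in S2-like cells (adjusted p = 0.00788). Without the pooled set, the former was 7.98, a fit in which both remaining S1-like sets were at 0. The latter was 1.15 (edgeR adjusted p = 0.33) without Akita replicate 1 and 0.68 (edgeR adjusted p = 0.764) without the pooled set. Napsa was seen in 59.1% of S3-like cells, 43.3% of S2-like, 8.89% of S1-like and 12.7% of distal-marked cells, the last 2 being near each other.

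Ugt2b38 (ENSMUSG00000061906, chr5:87409942-87424203) stood at 1447, 2574 and 1352 CPM in S3-like cells, at 1081, 1273 and 1447 CPM in S2-like cells and at 951, 558 and 858 CPM in S1-like cells. Its S3-like sets overlapped with the S2-like sets, and 65.6% and 65.4% of these cells had a UMI. It was higher than in S1-like cells by 1.35 ± 0.32 on the log2 scale (edgeR adjusted p = 0.00118), but by 0.47 (edgeR adjusted p = 0.55) without the pooled set, and the difference from S2-like cells was 0.63 ± 0.24 (edgeR adjusted p = 0.212). Ugt2b genes are near-identical neighbours, so the counting could split or lose their reads. Kap (chr6:133849851-133853762) held 8.57% of all UMIs of S3-like cells, at 49051, 95940.1 and 71276 CPM, against 7419, 6944 and 8186 CPM in S1-like cells (3.14 ± 0.36, edgeR adjusted p = 5.08e-11) and 25948, 41829 and 53600.1 CPM in S2-like cells (0.89 ± 0.32, edgeR adjusted p = 0.194). A UMI of Kap was found in 97.4% of distal-marked cells too, so its presence in a droplet does not mark a cell.

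**Figure D2:**
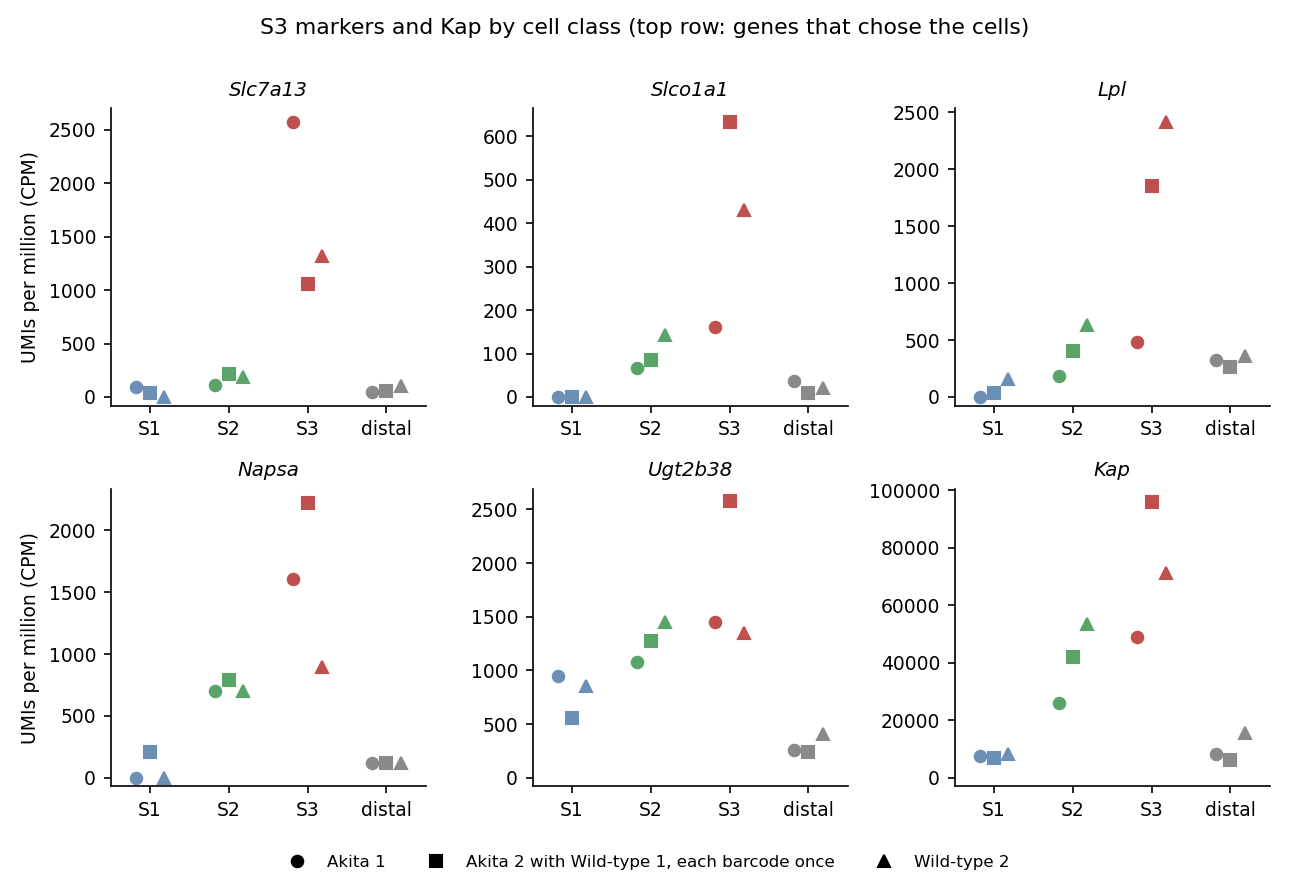
CPM (y axes) of the 3 genes that chose the S3-like cells (top row), and of Napsa, Ugt2b38 and Kap (bottom row), in S1-like, S2-like, S3-like and distal-marked cells, with 1 point per set. Napsa separates S3-like from S2-like sets (892 CPM or more against 793 CPM or less), whereas Ugt2b38 overlaps between them.

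RefSeq promoter entries (GRCm38.p6) were matched for 2 of the 5 markers, Slco1a1 and Ugt2b38, and the 250 bases before each start site are shown because the 2 promoters share their longest stretch at nearly the same place. Capitals mark AGGTCA, the core hexamer of many nuclear receptor sites, on either strand (TGACCT is its reverse complement).
Slco1a1, chr6:141946963-141947212, minus strand: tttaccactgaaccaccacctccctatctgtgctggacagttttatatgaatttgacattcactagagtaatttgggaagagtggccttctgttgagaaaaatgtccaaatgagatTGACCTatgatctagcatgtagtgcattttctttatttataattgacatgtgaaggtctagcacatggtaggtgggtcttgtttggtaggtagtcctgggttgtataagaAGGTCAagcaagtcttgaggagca
Ugt2b38, chr5:87424204-87424453, minus strand: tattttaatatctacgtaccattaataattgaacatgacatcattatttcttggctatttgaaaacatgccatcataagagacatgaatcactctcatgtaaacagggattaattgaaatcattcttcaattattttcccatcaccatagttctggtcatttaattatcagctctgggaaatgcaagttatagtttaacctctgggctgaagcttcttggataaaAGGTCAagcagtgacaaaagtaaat
The shared stretch, aAGGTCAagca, is 11 bases long, and its AGGTCA began 24 bases before the start site of Slco1a1 and 25 before that of Ugt2b38. The stretch was found on the same strand in 7 of 32851 promoters of this length (0.0213%) and on either strand in 9 (0.0274%), among them those of Ugt2b5, Ugt2b36 and Ugt2b37. The stretch was picked because it is the longest that these 2 promoters share. Its counts therefore do not measure how often 2 promoters share a stretch this long, which was not tested. AGGTCA alone, on either strand, was in 4607 of the 32851 promoters (14.0%). These are matches of letters and not measured binding sites.

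Across genes outside the rule, S3-like cells were set apart from S1-like cells by many genes and from S2-like cells by few. Of 594 genes tested, 94 passed against S1-like cells at an adjusted p under 0.05 in edgeR (15.8%), 44 higher (7.41%) and 50 lower (8.42%) in S3-like cells. Against S2-like cells 9 passed (1.52%), 5 higher (0.842%) and 4 lower (0.673%), and all 9 also passed in the same direction against S1-like cells. The median log2 difference over all genes tested was -0.04 against S1-like and 0.01 against S2-like cells, and the median standard error was 0.45 and 0.33, which limits what sums of so few cells can resolve. The classes were chosen by opposing genes in the same cells, so genes that follow those segments are not independent of the rule. The p-values measure only the spread between these 3 sets, and in sums over cells fewer cells with a transcript and less RNA per cell cannot be told apart. The count against S2-like cells was 0 without Akita replicate 1 (62 genes at an unadjusted p under 0.05 in edgeR), 2 without the pooled set, of which 1 was among the 9, and 4 without Wild-type replicate 2. DESeq2 called 1 gene and limma-voom 2. Against S1-like cells, the counts without these sets were 54, 44 and 52, of which 51, 38 and 51 were among the 94.

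**Figure D3:**
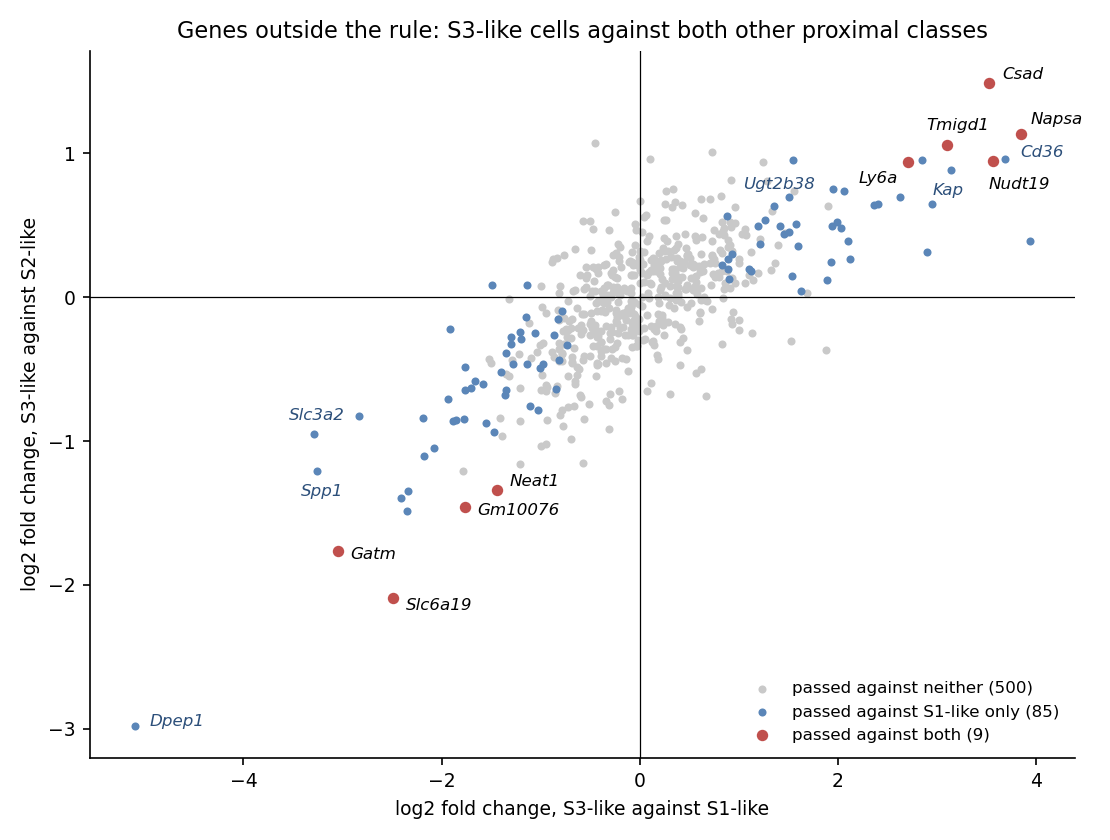
Log2 fold change of each of the 594 genes tested in S3-like cells against S1-like cells (x axis) and against S2-like cells (y axis), with the 9 genes that passed against both in red and those that passed against S1-like cells only in blue. Napsa lies at 3.84 and 1.13 and Gatm at -3.04 and -1.76, while most genes gather near the origin.

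The 5 genes higher than in both other classes were Napsa, described above, Csad, Tmigd1, Nudt19 and Ly6a. Csad (chr15:102176999-102204724) encodes cysteine sulfinic acid decarboxylase, the enzyme that commits cysteine to taurine. It stood at 1126, 295 and 604 CPM in S3-like, 158, 166 and 223 CPM in S2-like, and 95.1, 34.9 and 0 CPM in S1-like cells. All S3-like sets were above all others, by 3.53 ± 0.82 on the log2 scale against S1-like (edgeR adjusted p = 0.000925) and 1.49 ± 0.42 against S2-like cells (edgeR adjusted p = 0.0466). Tmigd1 (chr11:76902159-76916587), an adhesion protein of the epithelial brush border, stood at 643, 872 and 978 CPM in S3-like, 293, 381 and 604 CPM in S2-like, and 0, 174 and 0 CPM in S1-like cells. It was higher in every S3-like set than in any other proximal set, by 3.10 ± 0.54 (edgeR adjusted p = 8.97e-06) and 1.06 ± 0.29 (edgeR adjusted p = 0.0466). The former was 7.57 without the pooled set, where the other S1-like sets had no UMI.

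Nudt19 (chr7:35547185-35556304), a peroxisomal enzyme that cleaves coenzyme A, stood at 804, 1421 and 1064 CPM in S3-like, 450.5, 646 and 763 CPM in S2-like, and 95.1, 69.8 and 156 CPM in S1-like cells. The classes did not overlap, and the differences were 3.56 ± 0.50 (edgeR adjusted p = 6.16e-08) and 0.94 ± 0.26 (edgeR adjusted p = 0.0466). Ly6a (chr15:74994877-74998031), a membrane-anchored surface protein also known as Sca-1, stood at 643, 1491 and 1496 CPM in S3-like, 360.4, 627 and 1177 CPM in S2-like, and 285, 139.6 and 234 CPM in S1-like cells. It was higher within each set, although the lowest S3-like set lay inside the S2-like range, by 2.71 ± 0.43 (edgeR adjusted p = 1.31e-06) and 0.94 ± 0.26 (edgeR adjusted p = 0.0466). Distal-marked cells had Ly6a at 1630.4, 1164 and 1474 CPM, much like S3-like cells, and how far RNA from distal cells entered its value was not tested. None of these 4 genes passed against S2-like cells when any 1 set was left out (edgeR adjusted p from 0.195 to 0.764), and the log2 difference then ranged from 1.18 to 1.97 for Csad, 0.84 to 1.21 for Tmigd1, 0.62 to 1.12 for Nudt19 and 0.53 to 1.26 for Ly6a.

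The 4 genes lower than in both other classes were Gatm, Neat1, Slc6a19 and Gm10076. Gatm (chr2:122594467-122611303) encodes glycine amidinotransferase, the enzyme of the first step of creatine synthesis. It stood at 643, 394 and 230.1 CPM in S3-like, 1577, 1525 and 970.2 CPM in S2-like, and 3995, 2338 and 3197 CPM in S1-like cells. The classes were fully separate and fell in the order S1, S2, S3, with differences of -3.04 ± 0.31 against S1-like (edgeR adjusted p = 1.09e-12) and -1.76 ± 0.30 against S2-like cells (edgeR adjusted p = 4.4e-05). Gatm kept its call against S2-like cells in 15 of 18 alternatives, more than any other of the 9 genes, and was -1.88 (edgeR adjusted p = 0.052) without Akita replicate 1. Slc6a19 (chr13:73679745-73704865), the apical transporter of neutral amino acids, stood at 0, 28.1 and 173 CPM in S3-like, 338, 424 and 175 CPM in S2-like, and 190.2, 349 and 702 CPM in S1-like cells. The S3-like and S2-like values of Wild-type replicate 2 were almost equal, and the differences were -2.49 ± 0.69 (edgeR adjusted p = 0.00667) and -2.09 ± 0.59 (edgeR adjusted p = 0.0466). Without Akita replicate 1 they were -2.50 (edgeR adjusted p = 0.0899) and -1.98 (edgeR adjusted p = 0.378), while the latter was -3.83 when Wild-type replicate 2 was left out (edgeR adjusted p = 0.00474).

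Neat1 (chr19:5824708-5845478) is a long noncoding RNA that stays in the nucleus and builds paraspeckles. It stood at 1287, 492 and 949 CPM in S3-like, 1554, 1968 and 2259 CPM in S2-like, and 1902, 2303 and 1325 CPM in S1-like cells. Every S3-like set was below every other set, by -1.44 ± 0.31 (edgeR adjusted p = 0.000263) and -1.34 ± 0.27 on the log2 scale (edgeR adjusted p = 0.000928). Without the pooled set the differences were -0.76 (edgeR adjusted p = 0.275) and -0.86 (edgeR adjusted p = 0.606), and without Akita replicate 1 that against S2-like cells was -1.56 (edgeR adjusted p = 0.1). Malat1, another nuclear RNA, stood at 15278, 14166 and 10384 CPM in S3-like, 18335, 23676 and 19738 CPM in S2-like, and 36051, 25786 and 9979.7 CPM in S1-like cells. It was lower than in S1-like cells (-0.85 ± 0.31, edgeR adjusted p = 0.0467), but not past the threshold without Akita replicate 1 (-0.39, edgeR adjusted p = 0.599) or without the pooled set (-0.86, edgeR adjusted p = 0.2), and the difference from S2-like cells was -0.64 (edgeR adjusted p = 0.404). These values moved together with a larger mitochondrial share in S3-like than in S2-like cells in each library (19.5, 23.8, 21.3 and 28.2% against 18.3, 18.0, 17.6 and 15.1%), whose part in the result was not tested. In S1-like cells that share was 20.9, 16.9, 22.9 and 23.6%, above S3-like cells in 2 libraries and below in 2.

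Mitochondrial transcripts also differed from S1-like cells, in both directions. The respiratory chain genes mt-Co1 (0.89, edgeR adjusted p = 0.0241) and mt-Nd5 (0.88, edgeR adjusted p = 0.0174) were higher in S3-like cells and the ribosomal RNA mt-Rnr1 was lower (-1.15, edgeR adjusted p = 0.0016). Without Akita replicate 1 none of them passed (0.83, 1.10 and -0.74; edgeR adjusted p = 0.216, 0.0524 and 0.17). The genes mt-Co1 and mt-Nd5 did not pass without Wild-type replicate 2 either (0.60 and 0.69; edgeR adjusted p = 0.411 and 0.3), and without the pooled set the 3 values were 1.44, 0.92 and -1.74 (edgeR adjusted p = 0.00607, 0.112 and 0.000231). The part of these signs of RNA quality in the other calls against S1-like cells was not tested.

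Gm10076 (chr14:105681828-105682211), a short locus similar to the gene of ribosomal protein L41, stood at 482, 98.5 and 144 CPM in S3-like, 788, 326 and 445 CPM in S2-like, and 571, 558 and 389.8 CPM in S1-like cells. It was lower within each set except that Akita replicate 1 overlapped with other sets, by -1.76 ± 0.50 (edgeR adjusted p = 0.00887) and -1.46 ± 0.41 (edgeR adjusted p = 0.0466), and its reads may belong to the parent gene. Without the pooled set these were -1.08 (edgeR adjusted p = 0.392) and -1.25 (edgeR adjusted p = 0.661), and leaving out Wild-type replicate 2 gave -1.78 (edgeR adjusted p = 0.0715) and -1.44 (edgeR adjusted p = 0.38). Without Akita replicate 1, Gm10076 was -1.60 against S2-like cells (edgeR adjusted p = 0.33).

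**Figure D4:**
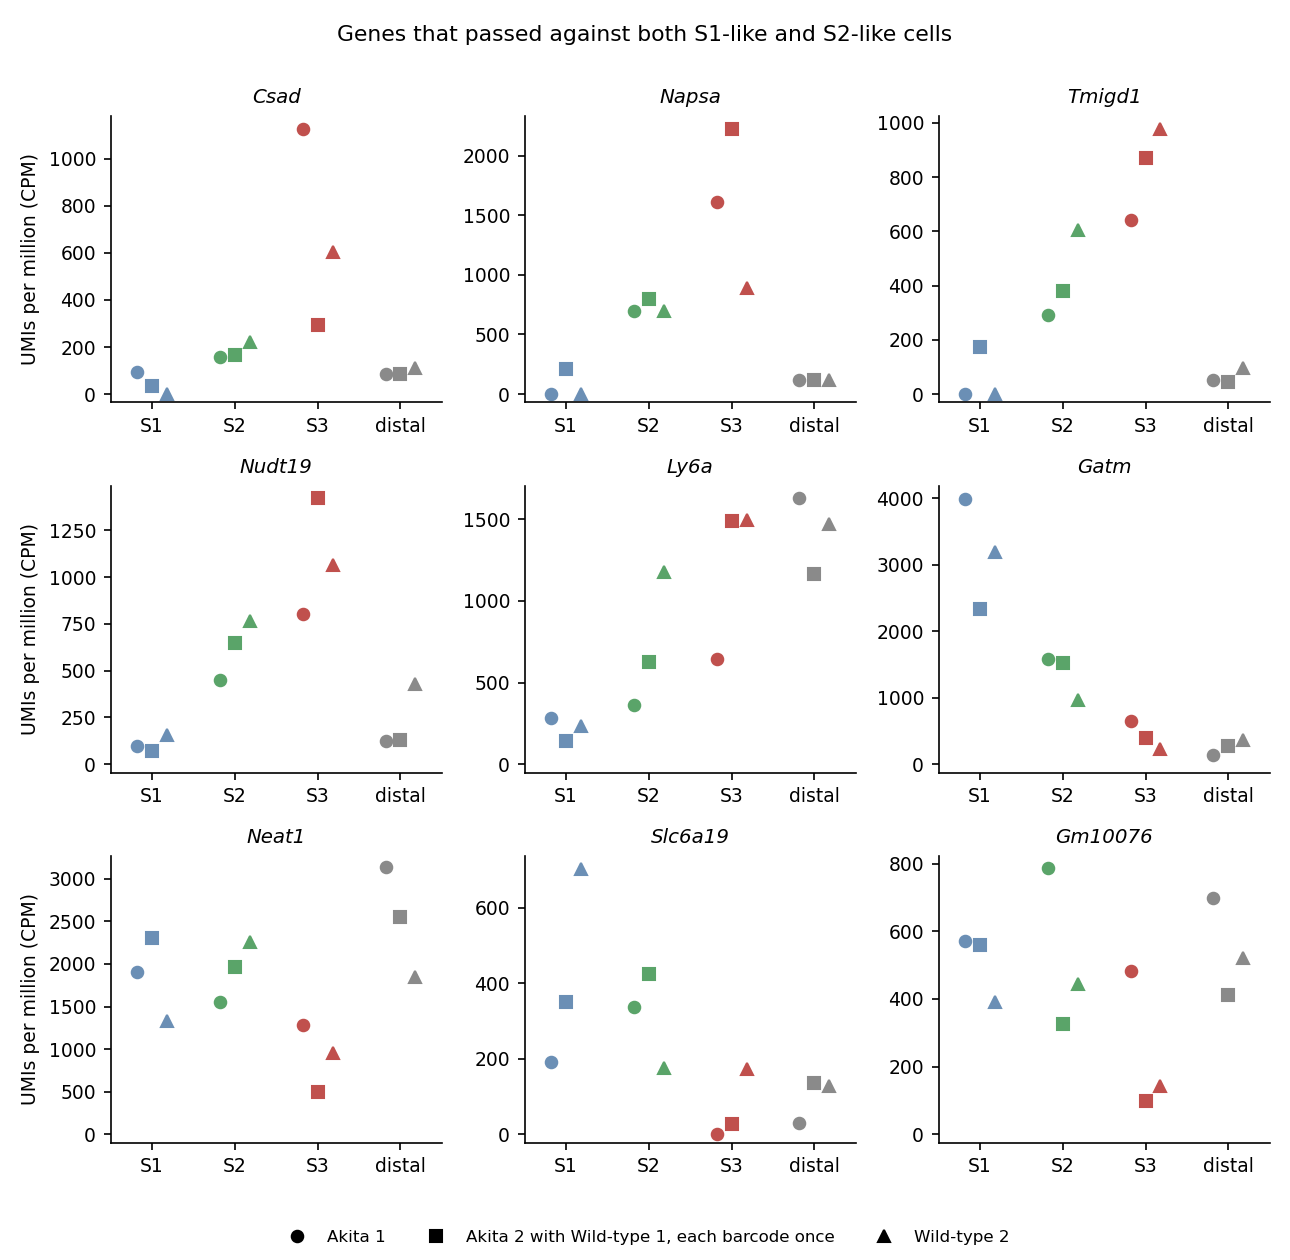
CPM (y axes) of the 9 genes that passed against both S1-like and S2-like cells, in the 4 cell classes, with 1 point per set. Gatm steps down from 2338 CPM or more in S1-like to 643 CPM or less in S3-like sets, and Nudt19 steps up from 156 CPM or less to 804 CPM or more.

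The members of the pathway and cell type lists are given by counts, to be read against the 7.41% of all tested genes that were higher and the 8.42% that were lower than in S1-like cells (0.842% and 0.673% against S2-like cells). Lists with few tested members are descriptions of those members only. Among 16 further S3 markers from the wider literature, 15 had a UMI and 3 were abundant enough to test. These 3, Napsa, Ugt2b38 and the phospholipid flippase Atp11a, all passed against S1-like cells (median log2 difference 2.85, beside -0.04 over all genes tested). Atp11a stood at 482, 703 and 834 CPM in S3-like, 338, 399.7 and 398 CPM in S2-like, and 95.1, 139.6 and 0 CPM in S1-like cells, without overlap. It was higher than in S1-like cells by 2.85 ± 0.56 (edgeR adjusted p = 6.32e-05), and the difference from S2-like cells was 0.96 ± 0.30 (edgeR adjusted p = 0.104). Since they passed the filter through their abundance, their count says nothing of the other 13. Of those 13, Slc22a7, the organic anion transporter OAT2, was picked after its values were seen. So was Mep1b, a subunit of the protease meprin, which belonged to no list. Slc22a7 had 13 UMIs in S3-like cells (161, 127 and 86.3 CPM) and none in S1-like, S2-like or distal-marked cells, which is at least 2.01-fold the limit of 3 counts over S1-like and at least 10.4-fold that over S2-like cells. Mep1b had 19 UMIs in S3-like cells, 2 in S2-like and none in S1-like cells. In edgeR without a filter on low counts, the adjusted p against S2-like cells was 0.0604 for Slc22a7 and 0.0822 for Mep1b.

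Of 16 markers of S1 and S2 outside the rule, 12 were tested, and 6 were lower and 2 higher than in S1-like cells (median -0.75), while 2, Gatm and Slc6a19, were lower than in S2-like cells (median -0.45, beside 0.01 over all genes). Slc34a1, the main phosphate transporter of the brush border, stood at 3216, 2560.3 and 2416 CPM in S3-like, 4054, 3272 and 3101 CPM in S2-like, and 7515, 4536 and 6393 CPM in S1-like cells. It was fully separate from S1-like cells and lower by -1.20 ± 0.26 (edgeR adjusted p = 0.000289). The other lower markers were Nox4, an NADPH oxidase (-2.83), the bicarbonate transporter Slc4a4 (-0.86) and the gluconeogenic Fbp1 (-0.81), of which the last 2 passed under none of the 3 fits that left out a set (-0.71 to -0.91 and -0.51 to -0.92; the values nearest to 0 came without Akita replicate 1 and without the pooled set). The 2 higher members were Cyp2e1 and Cyp4b1, monooxygenases of fatty acids and foreign compounds. Cyp2e1 stood at 2573, 2462 and 3624 CPM in S3-like and 285, 803 and 936 CPM in S1-like cells (1.93 ± 0.31, edgeR adjusted p = 1.31e-06), with 1577, 2626 and 3022 CPM in S2-like cells overlapping with S3-like. Cyp4b1 was 1.63 ± 0.31 higher than in S1-like cells (edgeR adjusted p = 3.93e-05).

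In amino acid transport, 2 of 14 genes were tested and both were lower than in S1-like cells. Slc3a2, the heavy chain 4F2hc that partners other amino acid exchangers, stood at 0, 42.2 and 86.3 CPM in S3-like, 45.0, 123 and 143 CPM in S2-like, and 856, 349 and 624 CPM in S1-like cells. It was apart from S1-like cells by -3.29 ± 0.71 (edgeR adjusted p = 0.000337), and by -3.47 (edgeR adjusted p = 0.0729) without the pooled set. Among 16 organic anion and cation transporters, 5 were tested, 2 were higher than in S1-like cells (median of the 5 tested 0.47), and none passed against S2-like cells (median 0.27). Slc22a2, the organic cation transporter OCT2, stood at 965, 1224 and 805 CPM in S3-like, 653, 879 and 1034 CPM in S2-like, and 190.2, 279 and 156 CPM in S1-like cells (2.13 ± 0.42 against S1-like, edgeR adjusted p = 8.24e-05). The urate transporter Slc22a12 was higher than in S1-like cells by 1.51 ± 0.35 (edgeR adjusted p = 0.000925, and 0.0564 without the pooled set).

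Of 17 genes of lipid uptake and carriage, 2 were tested and both were higher than in S1-like cells (median 2.84), with none past the threshold against S2-like cells (median 0.74). Cd36, a fatty acid scavenger receptor, stood at 0, 802 and 288 CPM in S3-like, 315, 246 and 286 CPM in S2-like, and 0, 34.9 and 78.0 CPM in S1-like cells (3.69 ± 0.80, edgeR adjusted p = 0.000357). It was absent among the 6218 UMIs of Akita replicate 1 and highest in the pooled set. Slc27a2, a fatty acid transport protein with acyl-CoA synthetase activity, stood at 2091, 2279 and 1869.6 CPM in S3-like, 1284, 1279 and 2068 CPM in S2-like, and 571, 419 and 624 CPM in S1-like cells (1.99 ± 0.33, edgeR adjusted p = 3e-06). Among 20 genes of the peroxisome list, which did not include Nudt19, 8 were tested and none passed in edgeR against either class (medians 0.35 and 0.14). In glucose and fructose handling, 2 of 5 tested genes were lower than in S1-like cells, Fbp1 and the glucose-releasing G6pc (0, 113 and 115 against 571, 593 and 312 CPM, -2.18 ± 0.58, edgeR adjusted p = 0.00446), and none passed against S2-like cells.

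Among 20 glutathione genes, 11 were tested, 1 was higher and 3 lower than in S1-like cells (median 0.35), and none passed against S2-like cells (median -0.09). Gpx3, the glutathione peroxidase that the proximal tubule secretes into plasma, stood at 11740.1, 8623 and 9492 CPM in S3-like, 14911, 15202 and 11738 CPM in S2-like, and 28060.5, 28019 and 38048 CPM in S1-like cells. It was lower than in S1-like cells by -1.76 ± 0.30 (edgeR adjusted p = 3.92e-06), and only the lowest S2-like set touched the S3-like range. Dpep1, a brush border dipeptidase of glutathione breakdown, had 0, 0 and 28.8 CPM in S3-like cells, a single UMI, against 22.5, 98.4 and 127 CPM in S2-like and 476, 349 and 312 CPM in S1-like cells (edgeR adjusted p = 0.000309 against S1-like). Over all sets this was 1 UMI against 19, a ratio of 0.0244 (exact interval for counting error 0.000588 to 0.154), and 0.0963 of the S2-like level (0.00235 to 0.588). The peptidase Cndp2 was the higher member, at 1287, 1055 and 1294 CPM in S3-like against 380.5, 139.6 and 234 CPM in S1-like cells (2.41 ± 0.42, edgeR adjusted p = 6.47e-06). Acy3, an aminoacylase that acts on mercapturic acids and belonged to no list, was named after its values were seen, at 1287, 2307 and 1869.6 CPM in S3-like, 721, 1359 and 1416 CPM in S2-like, and 0, 279 and 624 CPM in S1-like cells.

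Of 15 androgen-regulated kidney genes, all had a UMI in S3-like cells, 6 were tested and 5 were higher than in S1-like cells, namely Kap, Odc1, Cyp4b1, Ugt2b38 and Adh1 (median of the 6 tested 1.54). None passed against S2-like cells (median 0.54). Odc1, the first enzyme of polyamine synthesis, stood at 482, 394 and 489 CPM in S3-like and 0, 105 and 78.0 CPM in S1-like cells (2.36 ± 0.69, edgeR adjusted p = 0.011). Odc1 and the alcohol dehydrogenase Adh1 (1.45 ± 0.49, edgeR adjusted p = 0.0309) did not pass when any 1 set was left out, with log2 differences of 2.17 to 3.14 and 1.08 to 1.93. The sex of the mice is not given in the sources used here. In the lysosomal list, Napsa was higher and the protease Lgmn lower than in S1-like cells (-2.19, edgeR adjusted p = 0.00284, but 0.0767 without the pooled set and 0.118 without Wild-type replicate 2), and 5 other tested members did not pass. None of 4 tested genes of megalin and cubilin endocytosis passed, and Lrp2, megalin itself, stood at 3377, 1843 and 1639.5 CPM in S3-like and 2861, 1820.3 and 1940.4 CPM in S2-like cells. Of 14 proximal transcription factors, 2 were tested, and Hnf4a passed against neither class. Maf, the other, stood at 322, 394 and 345 CPM in S3-like, 1081, 683 and 573 CPM in S2-like, and 1141, 1431 and 1247 CPM in S1-like cells (-1.77 ± 0.34 against S1-like, edgeR adjusted p = 4.26e-05; -0.85 against S2-like, edgeR adjusted p = 0.194). Its S3-like sets were below every other proximal set.

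Of 20 cytochrome P450 genes, 5 were tested and 3 were higher than in S1-like cells (median 0.83; 0.20 against S2-like), namely Cyp2e1, Cyp4b1 and the electron carrier Cyb5a (0.83 ± 0.29, edgeR adjusted p = 0.0403), the last of which did not pass without the pooled set (edgeR adjusted p = 0.26) or without Wild-type replicate 2 (edgeR adjusted p = 0.413). Of 12 UDP-glucuronosyltransferases, 7 had a UMI and 3 were tested, with Ugt2b38 as the 1 that passed. Among 14 metallothionein and antioxidant genes, 9 were tested, the selenium carrier Selenop was higher (1.88 ± 0.56, edgeR adjusted p = 0.0129) and the metal-binding Mt1 lower than in S1-like cells (-1.92, edgeR adjusted p = 0.0137). Selenop did not pass without Akita replicate 1 (1.77, edgeR adjusted p = 0.119) or Wild-type replicate 2 (1.49, edgeR adjusted p = 0.222), and was 6.77 without the pooled set, where the other S1-like sets were at 0. Mt1 did not pass without Wild-type replicate 2 (-2.24, edgeR adjusted p = 0.0715). Of 15 immediate early and stress genes, which dissociation can induce, 5 had a UMI and 0 were abundant enough to test.

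Markers of other cell types were also looked for in this population. The 14 endothelial, stromal and podocyte markers had no UMI in S3-like cells. They were also low in S1-like (0 CPM), S2-like (0 to 22.5 CPM) and distal-marked cells (7.28 to 24.8 CPM). Their absence therefore does not set S3-like cells apart. Of 10 collecting duct markers outside the rule, 8 were at 0, and their sum ran from 0 to 57.5 CPM. That sum was 444 to 803 CPM in distal-marked cells, but 0 to 78.0 in S1-like and 18.4 to 111 CPM in S2-like cells. The 12 loop and distal markers outside the rule summed to 6594 to 8485 CPM in S3-like cells, 6081 to 8080 in S2-like cells and 22214 to 27588 in distal-marked cells, and were made up mostly of Fxyd2, a sodium pump subunit also made by proximal cells (5950.5, 6893 and 7306 CPM). Of 14 immune and red cell markers, 9 were at 0, and haemoglobin Hbb-bs was seen in 19.4% of S3-like against 11.6% of distal-marked cells. Tubular injury genes summed to 201 to 804 CPM, below the 856 to 1092 CPM of S1-like and the 1841 to 2906 CPM of distal-marked cells. They overlapped with the 286 to 428 CPM of S2-like cells. The one tested, Spp1, was lower than in S1-like cells (161, 98.5 and 57.5 against 666, 803 and 1092 CPM, -3.25 ± 0.53, edgeR adjusted p = 1.96e-06).

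S3-like cells with a UMI of Slc7a13 were deeper than those without, and Napsa and Atp11a stood higher in them, while other S3 transcripts varied. In the pooled set, 39 cells with Slc7a13 had a median of 1079 UMIs and 16 without had 708.5. In Wild-type replicate 2, the medians were 1111 in 19 cells with it and 620 in 13 without, while all 6 cells of Akita replicate 1 had it. Napsa stood at 2529 CPM with and 989 CPM without Slc7a13 in the pooled set, and at 1080 and 340 CPM in Wild-type replicate 2. Atp11a was ordered likewise, at 808 and 283 CPM and at 1080 and 113 CPM. Of the 16 S3 markers outside the rule, 12 were higher and 3 lower with Slc7a13 in the pooled set, and 9 were higher and 4 lower in Wild-type replicate 2, many of them on 1 to 3 UMIs. The genes that can replace Slc7a13 in the rule, Lpl and Slco1a1, were lower with it in both sets. A cell without Slc7a13 needed them to be called, so the rule favours this direction. Lpl stood at 1739 and 2332 CPM in the pooled set and was nearly equal in Wild-type replicate 2, at 2391 and 2491 CPM. Slco1a1 stood at 457 and 1342 CPM in the pooled set and at 270 and 906 CPM in Wild-type replicate 2. The S2 transporter Slc22a6 was lower with than without Slc7a13 in the pooled set (1071 and 1413 CPM) but higher in Wild-type replicate 2 (1350 and 566 CPM). These values are a description, with 2 sets and no test, and the part of depth in them was not tested.

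Between Akita and wild-type S3-like cells no gene passed. Over the 4 libraries as deposited, 0 of 592 genes had an adjusted p under 0.05 in edgeR (0%; smallest adjusted p 0.993), and 4 had an unadjusted p under 0.05. No gene was called by DESeq2 (0 at an unadjusted p under 0.05) or by limma-voom (10). The libraries of the 2 genotypes did not overlap for 151 genes (25.5%), 66 higher (11.1%) and 85 lower (14.4%) in Akita. With 2 against 2 libraries such separation is common by ordering alone, so these counts are a description. The median log2 difference was -0.03, with a median standard error of 0.48. Akita replicate 2 and Wild-type replicate 1 share most of their S3-like barcodes, so their values are not independent.

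The S3 markers varied as much within as between genotypes. Slc7a13 stood at 2573 and 1145 CPM in Akita and 1273 and 1323 CPM in wild-type, Slco1a1 at 161 and 640 against 681 and 431 CPM, and Napsa at 1608 and 2275 against 2327 and 892 CPM. Ugt2b38 stood at 1447 and 2534 CPM in Akita and 2327 and 1352 CPM in wild-type, and Kap at 49051 and 94151 against 92035 and 71276 CPM. The genotypes overlapped for each of these 5 genes. For Lpl they did not, with 482 and 1799 CPM in Akita and 1800 and 2416 CPM in wild-type, but Akita replicate 2 and Wild-type replicate 1 were nearly equal. Slc22a6 stood at 1447 and 1158 CPM in Akita and 1054 and 1151 CPM in wild-type. Slc7a13, Slco1a1, Lpl and Slc22a6 chose the cells, so their values are a description, although the genes tested included them. Of the genes outside the rule, the log2 difference over 23 alternative analyses changed sign in 4 for Napsa (-0.23 to 1.71), in 4 for Kap (-0.94 to 1.77) and in 3 for Ugt2b38 (-0.56 to 1.18).

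Genes with the smallest p in each direction are given by name, none of them passing (edgeR adjusted p = 0.993 for each). Canx, a chaperone of the endoplasmic reticulum, stood at 804 and 804 CPM in Akita and 417 and 288 CPM in wild-type (1.18 ± 0.43), and its partner in glycoprotein folding, Calr, at 965 and 1090 against 703 and 489 CPM (0.83 ± 0.39). Nat8, an acetyltransferase of cysteine conjugates, stood at 1287 and 463 against 263 and 259 CPM (1.23 ± 0.51), and the parathyroid hormone receptor Pth1r at 804 and 668 against 417 and 230 CPM (1.07 ± 0.45). Igfbp7, an insulin-like growth factor binding protein, was at 804 and 1458 against 856 and 662 CPM (0.78 ± 0.40). The libraries of the genotypes overlapped for Igfbp7 only among these 5. In the other direction, Ddah1, which degrades methylarginines, stood at 161 and 204 against 307 and 604 CPM (-1.13 ± 0.56), the splicing factor Luc7l3 at 322 and 123 against 351 and 374 CPM (-1.28 ± 0.65), and the dehydratase Pcbd1 at 161 and 259 against 439 and 489 CPM (-0.88 ± 0.50). The ribosomal protein gene Rpl21 (161 and 286 against 549 and 403 CPM, -0.80 ± 0.49) has processed copies that can take its reads. In Akita replicate 1, 161 CPM is 1 UMI. No gene of the 21 pathway and cell type lists passed between genotypes either.

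**Figure D5:**
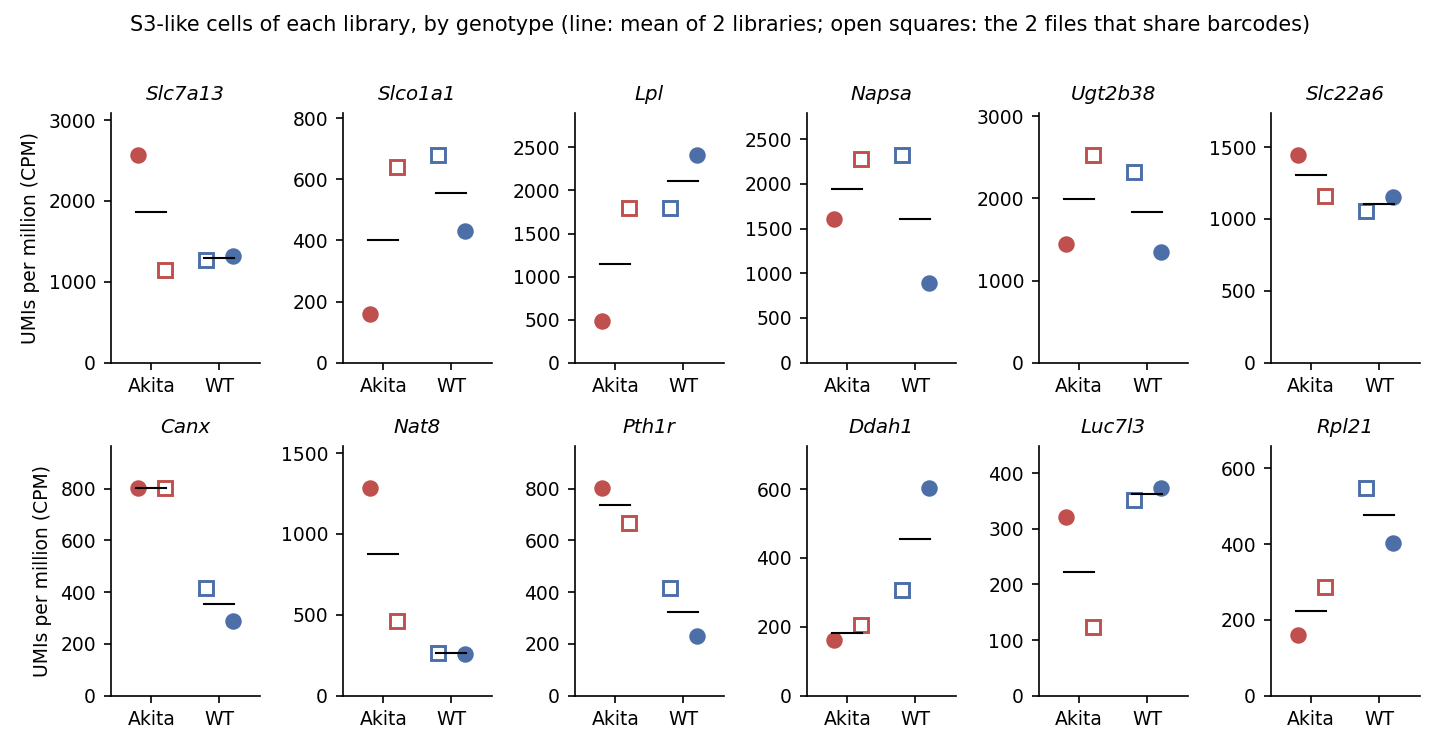
CPM in the S3-like cells of each library (y axes) by genotype, for the S3 markers and Slc22a6 and for 6 of the genes with the smallest p, which did not pass the test. Lines are means of 2 libraries, and open squares are the 2 files that share barcodes, which lie close together for Lpl (1799 and 1800 CPM) and Ugt2b38 (2534 and 2327 CPM).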

How the data were processed

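Drop-seq libraries were deposited as UMI counts per gene and barcode, 1 file per library, without normalization. The submitters' processing notes name STAR 2.5.2b, UMI-tools 0.5.3, featureCounts 1.6.0 and GRCm38; filters on barcodes are not given in the sources used here. The 4 libraries held 1016719, 1200209, 1303453 and 1115055 UMIs. Barcodes with at least 200 genes and at most 50% mitochondrial UMIs were retained, except strings with undetermined bases or 1 base 11 or more times. No doublet caller was run. Symbols and coordinates are from GENCODE M21.

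CPM are UMIs of a gene per 1000000 UMIs of the summed class. Sums were tested with edgeR 4.0.16 (R 4.3.3; quasi-likelihood, TMM, filterByExpr, two-sided), classes with the set as a covariate and the 15 rule genes left out of the tests, genotypes on the 4 libraries as deposited. DESeq2 1.42.0, limma 3.58.1 and other filters were alternatives. The fits were also run on simulated counts, drawn independently with a fixed spread. These did not contain shared barcodes, so they do not measure the error in these data.

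Named were the genes passing against both classes in 1 direction with at least 100 CPM, up to 12 per direction. Between genotypes, where no gene passed, the 5 of smallest p in each direction were named, except that some items are not reported here. From each list, members passing and up to 4 of the highest were taken. The members, lists and rules were chosen with earlier results of these data known. Same-numbered replicates were not paired by the labels.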

Additional observations from a re-analysis of the deposited data

How the results depend on the processing

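The Akita minus wild-type difference in the S3-like share of retained cells, -1.45 points, reversed to 0.129 (thinned to 500 UMIs), 1.82 (shared barcodes left out) and 3.15 (each kept in 1 file), and ran from -5.16 to 2.25 with 1 library left out. Over the proximal classes, -6.75 became 0.618, 11.2 and 8.97, and ran from -15.8 to 2.27. With shared barcodes kept in 1 file, the median depth difference reversed to -311.75 UMIs and -166.25 genes. The mitochondrial difference ran from -6.54 to 0.41 with 1 library left out, the latter without Wild-type replicate 2. The causes were not tested.

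Against S1-like cells, the count of 94 genes became 49 with DESeq2, 28 with no filter, 39 with at most 25% mitochondrial UMIs, 53 with a class sum of at least 3, 45 with no distal UMI allowed, 16 thinned, 35 without shared barcodes, 161 with 4 libraries as deposited and 44 to 54 with 1 set left out. Against S2-like cells, 9 became 1 (DESeq2), 2 (limma-voom), 3 (RLE size factors), 1 (no filter), 4 (at least 50 UMIs), 14 (at least 500 genes per cell), 5 (25% mitochondrial), 5 (margin of 2), 1 (no distal UMI), 0 (thinned, edgeR, with 10 at an unadjusted p under 0.05), 1 (without shared barcodes), 52 (4 libraries, which count shared cells in 2 files) and 0 to 4 with 1 set left out. Counts against both were the same, except 4 (margin of 2) and 40 (4 libraries).

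Between genotypes, the count of 0 stood in every alternative. Pairing by replicate number (a replicate block in edgeR) called 0 genes, with 5 at an unadjusted p under 0.05. Same-numbered deviations correlated at -0.213, and at -0.057 with each shared barcode kept in 1 file. Akita replicate 2 and Wild-type replicate 1 differ in number but share barcodes, so the former value cannot decide on pairing. A crossed block also called 0 genes. Beside the genotype values of Napsa, Kap and Ugt2b38 given above, the named genes outside the rule whose direction reversed were Slc22a12 against S2-like cells (-0.00865, no filter), Malat1 against S1-like cells (0.62, thinned) and Igfbp7 (-0.13 to 0.99 with 1 library left out, the former without Akita replicate 2). Among rule genes, the genotype difference of Slco1a1 changed sign in 13 of 19 alternatives (-1.99 to 0.31). That of Slc22a6 did so in 6 of 23 (-0.32 to 0.59) and that of Slc7a13 in 2 of 23 (-0.12 to 0.78). Lpl changed sign in 0 of 23. Of 1165 further values of single genes and depth under alternatives, 938 kept their direction and side of the threshold, 215 lost a call and 12 gained one. At these depths, changes of low genes were not detectable.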
